A study of Saccharomyces cerevisiae with 12 samples.

Results

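SMK1, SPS1, SSP2 and CAK1 are the 4 genes described here, of 6293 genes on the array. They were picked by their systematic names (YPR054W, YDR523C, YOR242C and YFL029C), all 4 were found with 2 spots each, and all 4 were among the 6283 genes tested. RNA of budding yeast, strain SK1 (known for fast and synchronous sporulation), was followed through the first 6.0 h of sporulation on 24 spotted arrays with 2 dyes. The 12 samples were taken at 0.0, 0.5, 1.0, 1.5, 2.0, 2.5, 3.5, 4.0, 4.5, 5.0, 5.5 and 6.0 h, and no 3.0 h sample was used here. By the labels every sample was a pool of 6 cultures grown in parallel, no genotype beyond the strain is named, and every sample was set against RNA of the same time-zero culture. Each sample was hybridised on 2 arrays with exchanged dyes, so that the later RNA was labelled with Cy5 on array A and with Cy3 on array B. All values are log2 ratios of the later RNA over time zero, so that 1 unit is a doubling.

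Smk1 is a mitogen-activated protein (MAP) kinase made in sporulation, where it is needed for the layers of the spore wall to be laid down in order. It is switched on without the usual upstream kinase pair. Cak1, the kinase that also activates the cell-cycle kinase Cdc28, phosphorylates the threonine of the Smk1 activation loop, and Ssp2, a sporulation protein, makes Smk1 phosphorylate the neighbouring tyrosine itself. Sps1 is a kinase of the Ste20 and germinal-centre (GC) family that is needed for closure of the spore membrane and for spore wall formation. As background, SMK1, SPS1 and SSP2 belong to the genes known to be switched on in mid-sporulation, after the transcription factor Ndt80 is made, while CAK1 is needed in growing cells as well.

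The arrays differed in brightness, and this bears on every value that follows. Signal counted as above background where the mean of a gene's spots was higher than the 95th percentile of the array's blanks (the blank limit). By that measure 23.97% to 89.7% of genes were above background for the later RNA and 17.6% to 84.5% for time zero. The sign of the B arrays rests on the labelled dyes with channel 1 read as Cy3; read by the order of the images in the headers, every B value below would change sign, and the differences so read are given with the comparisons. With the sign used, the 2 arrays of a time correlated above 0 across genes at 10 of 12 times (median r = 0.270; genes are not independent replicates), and at 5.0 h and 6.0 h with r of -0.01 and -0.02. The 3.5 h B array correlated best with the 6.0 h A array (r = 0.653, against 0.291 with its own A array), and the 5.0 h B array with the 5.5 h B array (r = 0.718). The 5.0 h A array correlated best with the 4.0 h A array (r = 0.637), and the 6.0 h B array had no r above 0.184 with any other array. These arrays go together with the values of SMK1, SPS1 and SSP2 below, so results without the 3.5, 5.0 and 6.0 h samples are given beside the main ones. Whether any of these arrays carries RNA of another time than its label was not tested, and the time of each value is the labelled one. In pooled cultures more cells in a stage and more RNA per cell cannot be told apart. Among markers, the meiosis regulators IME1 and IME2 were above background for the later RNA on 22 of 24 and 17 of 23 arrays. For time zero they were above it on 23 of 24 and 10 of 23 arrays, so the later counts alone do not show a rise. The 6 haploid markers were above background on 3 to 13 of 24 arrays. In the 3 comparisons used below 0 of them passed the test, where 3.63%, 0% and 0.891% of all genes were called. A count of 0 in 6 is near those shares and does not show that they stayed level. Their widest differences were those of the late samples against the 0.0 h sample, -2.79 for MFA2 and 1.87 for STE3.

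SMK1, the MAP kinase gene, gave ratios near 0 in the first hours, when its signal was above background on 1 of 8 early arrays for the later RNA and on 0 of 8 for time zero, so that a level was hardly measured. Its sample means were -0.091 at 0.0 h, 0.07 at 0.5 h, 0.047 at 1.0 h, 0.20 at 1.5 h and 0.23 at 2.0 h. In the middle hours it stood at -0.38 at 2.5 h, 2.93 at 3.5 h, 0.33 at 4.0 h and 0.27 at 4.5 h. In the late hours it stood at 2.48 at 5.0 h, 5.31 at 5.5 h and 4.33 at 6.0 h. The 3.5 h sample was high among the middle samples and lay above the lowest late one, so the middle and late groups overlapped. Taken by array, the 3.5 h value was 1.02 on the A array and 4.84 on the B array. At 5.0 h the A array gave -0.16 and the B array 5.12. At 5.5 h both arrays were high, with 4.78 and 5.84, and at 6.0 h the A array gave 7.73 and the B array 0.92. High ratios thus came from 5 arrays (3.5 h B, 5.0 h B, 5.5 h A, 5.5 h B and 6.0 h A), while the other 19 arrays ran from -0.80 to 1.02 with a median of 0.032.

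SSP2, the gene of the Smk1 activator, was high on the same 5 arrays. Its sample means were 0.027 at 0.0 h, 0.28 at 0.5 h, -0.16 at 1.0 h, -0.093 at 1.5 h and 1.15 at 2.0 h. They were 0.36 at 2.5 h, 2.14 at 3.5 h, 1.41 at 4.0 h and 0.12 at 4.5 h, then 3.25 at 5.0 h, 6.09 at 5.5 h and 4.80 at 6.0 h. By these means every late sample lay above every middle sample. In the authors' own deposited ratios it did not, with 1.43 at 5.0 h against 2.04 at 3.5 h and 1.47 at 4.0 h. By array, 3.5 h gave -0.033 (A) and 4.32 (B), and 5.0 h gave -0.55 (A) and 7.05 (B). The 5.0 h B value rests on 1 spot and the mean time-zero signal of the gene was 0.00472 of the blank limit, so its size is not fixed by a measured time-zero level. The A and B arrays gave 5.77 and 6.42 at 5.5 h, and 8.77 and 0.83 at 6.0 h. On the other 19 arrays SSP2 ran from -0.55 to 2.31, and 3 of them exceeded 1. These were the 2.0 h A array, where the mean of 1.15 came from 2.31 on A and -0.0026 on B, and both 4.0 h arrays (1.58 and 1.25). On the 4.0 h B array both channels lay below the blank limit, at 0.246 of it for the later RNA and 0.129 for time zero.

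SPS1, the Ste20-family kinase gene, was measured on 22 of 24 arrays. Both B spots were empty at 5.0 h and both were marked Z, a mark that was left out, at 5.5 h, so those 2 samples rest on the A array. Its sample means were -0.25 at 0.0 h, -0.017 at 0.5 h, 0.085 at 1.0 h, 0.74 at 1.5 h and -0.14 at 2.0 h. They were -0.80 at 2.5 h, 1.95 at 3.5 h, 0.27 at 4.0 h and 0.17 at 4.5 h, then -0.99 at 5.0 h, 6.02 at 5.5 h and 4.09 at 6.0 h. The 5.0 h sample was the lowest of all 12, so the late values spanned the middle ones. On its A array both channels lay below the blank limit, at 0.66 of it for the later RNA and 0.808 for time zero. That low ratio is thus not a measured level. At 3.5 h the arrays gave 0.53 (A) and 3.37 (B), and at 6.0 h 7.99 (A) and 0.20 (B). At 4.0 h they gave 1.86 (A) and -1.33 (B). On that B array both channels lay below the blank limit, at 0.193 of it for the later RNA and 0.392 for time zero. An opposite direction was thus not measured. Of the 5 arrays on which SMK1 and SSP2 were high, SPS1 was measured on 3, and it was high there too, from 3.37 to 7.99.

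CAK1, the activating kinase gene, followed a partly different course. On the 5 arrays on which SMK1 and SSP2 were high, CAK1 gave 1.00 to 2.72. These values were above 77.9% to 92.9% of array genes, while those of SMK1 were above 98.5% to 99.7%. On the 5.5 h A array both CAK1 channels lay below the blank limit, at 0.884 of it for the later RNA and 0.308 for time zero. On the other 19 arrays CAK1 ran from -1.02 to 2.72 with a median of 0.31, and 6 of them exceeded 1. Its sample means were 0.32 at 0.0 h, -0.49 at 0.5 h, 1.07 at 1.0 h, 2.39 at 1.5 h and 1.14 at 2.0 h. They were -0.24 at 2.5 h, 1.12 at 3.5 h, -0.44 at 4.0 h and 0.16 at 4.5 h, then 0.41 at 5.0 h, 1.87 at 5.5 h and 0.35 at 6.0 h. The highest sample was that of 1.5 h, where the A and B arrays gave 2.06 and 2.72, above 98.1% and 99.1% of array genes. Time zero was at 1.43 times the blank limit on that A array and at 0.495 on B. The size of the B ratio is thus not fixed by a measured time-zero level. The early arrays of both orientations gave near values for CAK1, -0.49 on each at 0.5 h, with 1.35 and 0.79 at 1.0 h and 1.11 and 1.17 at 2.0 h. At 0.5 h its later RNA lay below the blank limit on both, at 0.709 of it (A) and 0.262 (B). The 5.0 h arrays gave -1.02 and 1.83 for CAK1, its widest gap. CAK1 was above background for the later RNA on 18 of 24 arrays, against 10 of 24 for SMK1, 9 of 22 for SPS1 and 7 of 24 for SSP2.

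**Figure D1:**
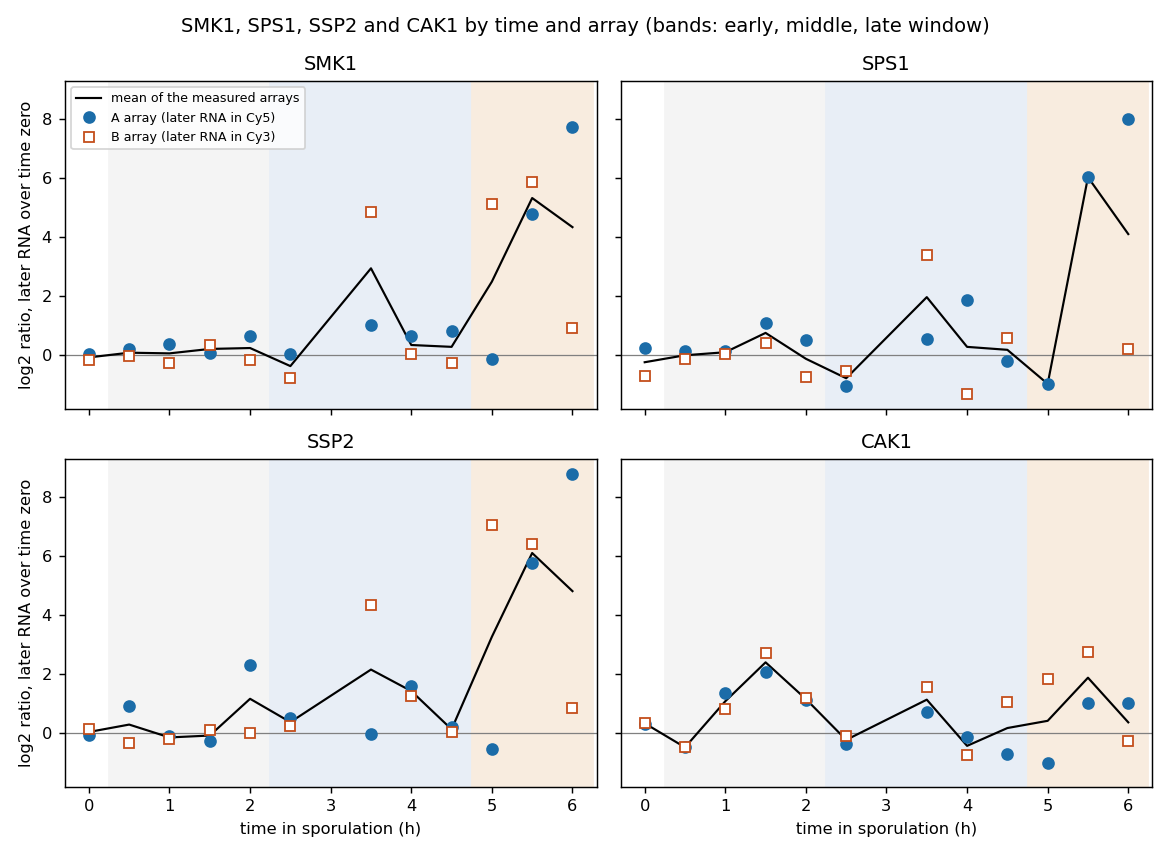
Log2 ratio of the later RNA over time zero (vertical) against hours of sporulation (horizontal), with 1 panel per gene, filled circles for A arrays, open squares for B arrays and a line through the mean of the measured arrays; grey, blue and orange shading mark the early, middle and late windows. SMK1 and SSP2 sit above 4 on the same 5 arrays, both at 5.5 h and 1 of the pair at 3.5, 5.0 and 6.0 h, while CAK1 has its highest mean at 1.5 h.

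The intensities behind these ratios show how much of each was measured. On the 6.0 h A array the later SMK1 signal was 769 times the blank limit and that of time zero 2.13 times, so both channels were above background. The same held at 3.5 h on the B array, with 28.4 times and 2.39 times. On the 5.0 h B, 5.5 h A and 5.5 h B arrays the later signal was 13.4, 22.0 and 13.2 times the limit, while time zero lay below it at 0.397, 0.42 and 0.0675 times. On those arrays the size of the ratio is not fixed by a measured time-zero level, and both spots of the 5.5 h B array carried the mark S. On the 6.0 h A array SPS1 had 626 times for the later RNA and 1.42 times for time zero, and SSP2 had 734 times and 1.01 times. On the 3.5 h B array time zero was at 2.09 times for SPS1 and 4.72 times for SSP2. At 5.5 h it lay below the limit, at 0.141 times for SPS1 (A) and 0.278 (A) and 0.0406 (B) times for SSP2. The size of those 5.5 h ratios is thus not fixed by a measured time-zero level either, and an SPS1 spot there carried the mark S. On the 6.0 h B array, where the ratios were low, the later RNA of SMK1 reached 0.59 of the blank limit, SPS1 0.623 and SSP2 0.371. On the 5.0 h A array SMK1 reached 1.15 times the limit for the later RNA and 1.10 times for time zero, so that array measured SMK1 near its limit in both channels and gave a log2 ratio of -0.16. SPS1 and SSP2 lay below the limit in both channels of that array. SPS1 was at 0.66 for the later RNA and 0.808 for time zero, and SSP2 at 0.824 and 0.859.

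**Figure D2:**
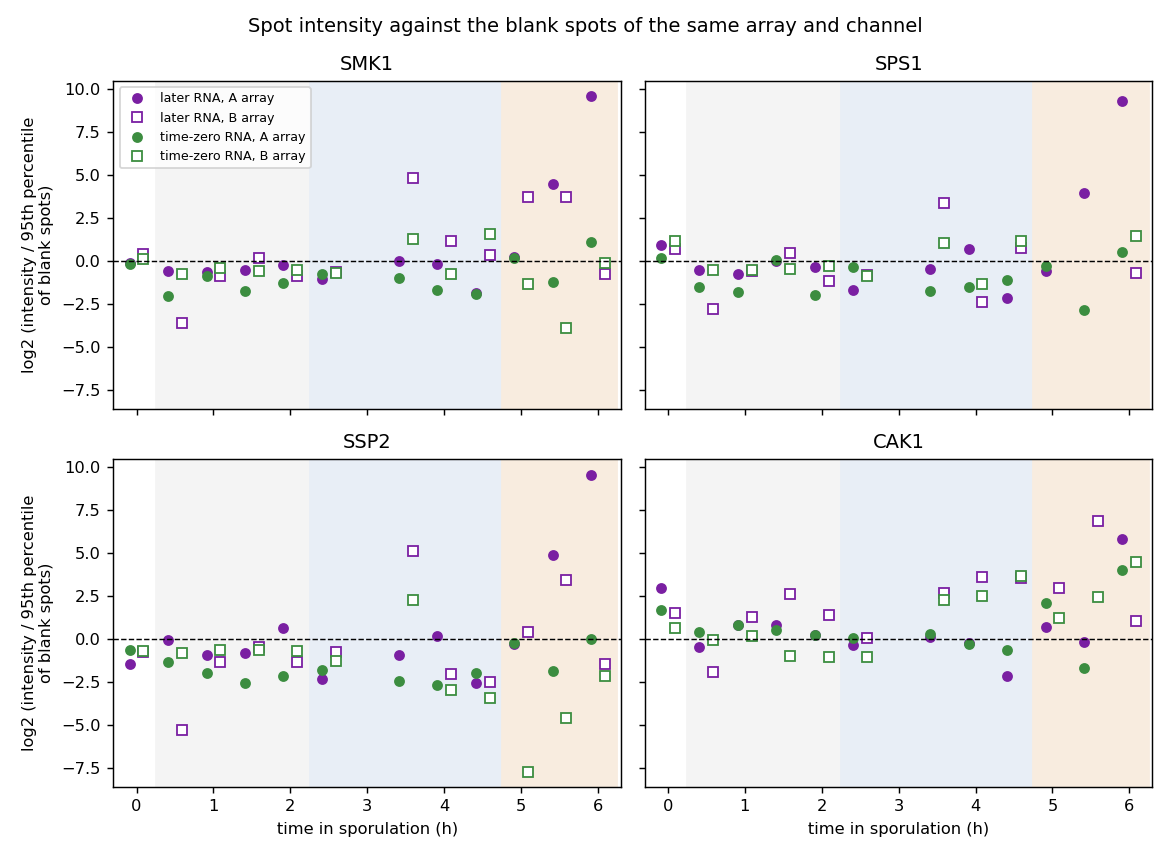
Log2 of spot intensity over the 95th percentile of the blank spots of the same array and channel (vertical) against hours (horizontal), purple for the later RNA and green for time zero, filled for A and open for B arrays; the dashed line at 0 is the blank limit, and grey, blue and orange shading mark the early, middle and late windows. For SMK1, SPS1 and SSP2 the later RNA rises far above the limit at 3.5 h (B) and 6.0 h (A), while time zero lies mostly below it, and CAK1 is above it on most arrays in both channels.

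The samples were grouped by time into an early window (4 samples, 0.5 to 2.0 h), a middle window (4 samples, 2.5 to 4.5 h) and a late window (3 samples, 5.0 to 6.0 h), with the 0.0 h sample alone as zero. Each time is 1 pooled sample, so the standard error (SE) and the p-values reflect how far neighbouring times within a window differ, which includes real change over time. From the middle to the late window SMK1 rose by 3.25 ± 0.72 (SE, n = 3 against 4), from a mean of 0.79 to 4.04 (limma, adjusted p = 0.0228). SSP2 rose by 3.71 ± 0.63, from 1.01 to 4.72 (limma, adjusted p = 0.00457). SPS1 went from 0.40 to 3.04, a difference of 2.64 ± 1.18 with a 95% interval from 0.088 to 5.20 that did not pass (limma, adjusted p = 0.251). CAK1 went from 0.15 to 0.88, a difference of 0.73 ± 0.61 with an interval from -0.58 to 2.04 (limma, adjusted p = 0.570). So 2 of the 4 genes rose, where 3.31% of all genes tested were called up and 3.63% in either direction. With the B arrays read by header order instead, a setting added after seeing the data, the differences were 0.24 for SMK1, 0.40 for SSP2, 3.09 for SPS1 and -0.26 for CAK1, and limma called 0 of 6283 genes (563 at an unadjusted p under 0.05).

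The late SMK1 call depended on single times: without the 5.5 h sample its difference was 2.62 (limma, adjusted p = 0.146), and it also missed the threshold without the 2.5, 4.0 or 4.5 h sample (adjusted p from 0.0640 to 0.0780). From the A arrays alone SMK1 differed by 3.49 and SSP2 by 4.11 (limma, adjusted p = 0.281 and 0.293), and from the B arrays alone by 3.01 and 3.31 (limma, adjusted p = 0.297 and 0.267), and limma called 0 genes in either setting. SPS1 passed without the 5.0 h sample, which rests on the A array, with 4.66 (limma, adjusted p = 0.00241). Without both the 5.0 h and 6.0 h samples the differences were 4.53 for SMK1, 5.08 for SSP2, 5.62 for SPS1 and 1.72 for CAK1, and with the 3.5 h sample left out as well 5.24, 5.46, 6.14 and 2.04. These samples were picked after their values were seen and the late window is then the 5.5 h sample alone (for SPS1, 1 array), so the values are a description with no test.

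Between the early and the middle window none of the 4 genes passed the test. SMK1 differed by 0.65 ± 0.67 (n = 4 against 4), SSP2 by 0.71 ± 0.58, SPS1 by 0.23 ± 1.10 and CAK1 by -0.88 ± 0.56, with limma adjusted p from 0.781 to 0.986. In this comparison limma called 0 of 6283 genes, or 0% in either direction, with 459 genes at an unadjusted p under 0.05. The SMK1 and SPS1 differences turned negative without the 3.5 h sample, at -0.064 and -0.29.

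Against the 0.0 h sample, which is time-zero RNA set against itself, SSP2 rose by 4.69 ± 0.96 (n = 3 against 1; limma, adjusted p = 0.0398). The lone 0.0 h sample has no spread of its own and was assumed to vary like the samples of the other windows. SMK1 was higher by 4.13 ± 1.09 (limma, adjusted p = 0.113), SPS1 by 3.29 ± 1.79 (limma, adjusted p = 0.506) and CAK1 by 0.55 ± 0.92 (limma, adjusted p = 0.866), none of them passing. That is 1 of 4 genes up, where 0.891% of all genes were called up. This comparison and the late against middle one share the late samples. The SSP2 call missed the threshold when any 1 of the 0.5, 1.0, 1.5, 2.5, 4.0 or 5.5 h samples was left out (adjusted p from 0.0531 to 0.0656 by limma). SMK1 passed without the 3.5 h or the 5.0 h sample (limma, adjusted p = 0.0248 and 0.0326), and SPS1 passed without the 5.0 h sample at 5.31 (limma, adjusted p = 0.0165) but was at 1.81 without the 5.5 h sample. With the late ratios set against 0 in place of the 0.0 h sample, so without any spread of the control, limma called 1422 of 6283 genes, 882 of them up. In that setting SMK1 and SPS1 passed too, at 4.04 and 3.04 (limma, adjusted p = 0.000265 and 0.0277). With the B arrays read by header order the differences were 0.051 for SSP2, -0.025 for SMK1, 2.50 for SPS1 and -0.53 for CAK1, none passing.

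The partner genes of the pathway were taken as a list of 13 and read in the same comparison of late against middle. Of the 13, 4 rose, 0 fell and 9 did not pass, with a median difference of 1.38; over all genes 3.31% were called up, 0.318% down, and the median was 0.025. NDT80, the transcription factor that switches on mid-sporulation genes, rose by 3.27 ± 0.49 (SE, n = 3 against 4; limma, adjusted p = 0.00292). ISC10, an inhibitor of Smk1, rose by 2.64 ± 0.56 (limma, adjusted p = 0.0177), and SPO77, which acts with SPS1 in spore wall formation, by 2.32 ± 0.37 (limma, adjusted p = 0.00375). HST1, the histone deacetylase that works with the repressor Sum1, rose by 2.00 ± 0.42 (limma, adjusted p = 0.0161). RFM1, which joins Hst1 to Sum1, was at 2.10 ± 0.74 and SUM1 itself at 0.099 ± 0.35, neither passing. AMA1, the meiosis-specific activator of the anaphase-promoting complex, was at 1.39 ± 0.87, and SPO75, needed for spore formation, at 1.38 ± 0.75. Downstream, GSC2, a glucan synthase subunit of the spore wall, was at 0.95 ± 0.50 and the chitin synthase gene CHS3 at 0.34 ± 0.36. IME2, the early meiosis kinase, was at 0.34 ± 0.94, and the 14-3-3 genes BMH1 and BMH2 were at 0.53 ± 0.36 and 0.38 ± 0.42.

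The partners that rose were also uneven between the arrays of a time. NDT80 gave 0.53 (A) and 3.65 (B) at 3.5 h, 0.49 and 7.49 at 5.0 h, 3.62 and 6.40 at 5.5 h, and 7.69 and -0.51 at 6.0 h. ISC10 gave 0.22 and 4.94 at 5.0 h, 2.72 and 7.21 at 5.5 h, and 4.16 and 0.40 at 6.0 h. SPO77 gave -0.62 and 6.13 at 5.0 h, 0.59 and 3.79 at 5.5 h, and 5.37 and 0.087 at 6.0 h. For time zero, NDT80 was above background on 1 of 24 arrays and SPO77 on 2, so most of their ratios have no measured base. AMA1 was at 1.48 in the 0.0 h sample, where both dyes carried time-zero RNA, from 3.30 on the A array, whose spots gave 0.095 and 6.50, and -0.33 on the B array. A ratio above 2 on all 5 arrays on which SMK1 and SSP2 were high was found in 76 of the 6197 genes measured there, or 1.23%; this pattern was defined after its values were seen and is given as a description.

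**Figure D3:**
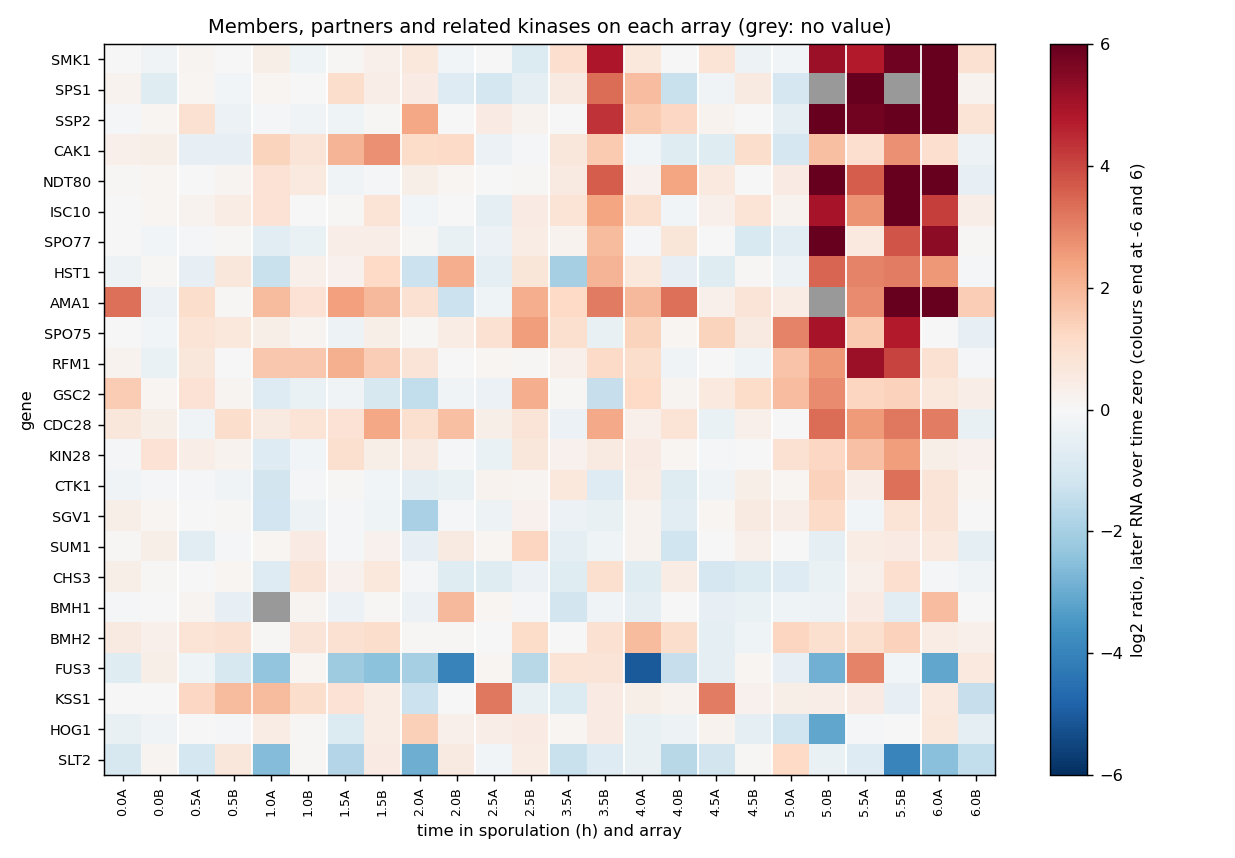
Log2 ratio of the later RNA over time zero, as colour from blue (-6) to red (6), on each of the 24 arrays (columns, by hour and array). Rows are the 4 genes, their partners except IME2, other Cak1 substrates and other MAP kinases, and grey marks no value. Where measured, SMK1, SPS1, SSP2, NDT80, ISC10 and AMA1 are red on the 3.5 h B, 5.0 h B, 5.5 h A, 5.5 h B and 6.0 h A columns. The same holds for HST1, from 2.04 to 3.50, and for the Cak1 substrate CDC28, from 2.29 to 3.36. SPS1 is grey on 5.0 h B and 5.5 h B, and AMA1 on 5.0 h B. CAK1 is red at 1.5 h on both arrays.

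Other substrates of Cak1 were read as a list of 4. None passed in late against middle, where 3.63% of all genes were called in either direction, and their median difference was 0.99. CDC28, the main cell-cycle kinase, was at 1.44 ± 0.42 (limma, adjusted p = 0.0821). CTK1, which phosphorylates RNA polymerase II, was at 1.00 ± 0.34, KIN28, the kinase of the transcription factor TFIIH, at 0.97 ± 0.41, and SGV1, a kinase of transcription elongation, at 0.57 ± 0.32. The CDC28 arrays gave -0.37 (A) and 2.29 (B) at 3.5 h, 0.040 and 3.36 at 5.0 h, 2.57 and 3.16 at 5.5 h, and 3.08 and -0.46 at 6.0 h. CDC28 was thus also above 2 on each array on which SMK1 and SSP2 were high.

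The other MAP kinases of yeast, a list of 4, did not pass either, and their median difference was -0.73. Over all genes 3.63% were called in either direction, so none called in a list of 4 is near that share, here and for the Ste20 list below. KSS1, of filamentous growth, was at -0.80 ± 0.56, HOG1, of the osmotic response, at -0.77 ± 0.49, SLT2, of cell wall integrity, at -0.70 ± 0.57, and FUS3, of the pheromone response, at 0.32 ± 0.92. Their limma adjusted p lay between 0.430 and 0.886. Of 4 other kinases of the Ste20 and GC families none passed; KIC1 was at 0.021 ± 0.33, CLA4 at -0.068 ± 0.35, SKM1 at -0.20 ± 0.40 and STE20 at -0.60 ± 0.35. The difference between SMK1 or SPS1 and these relatives was not tested.

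**Figure D4:**
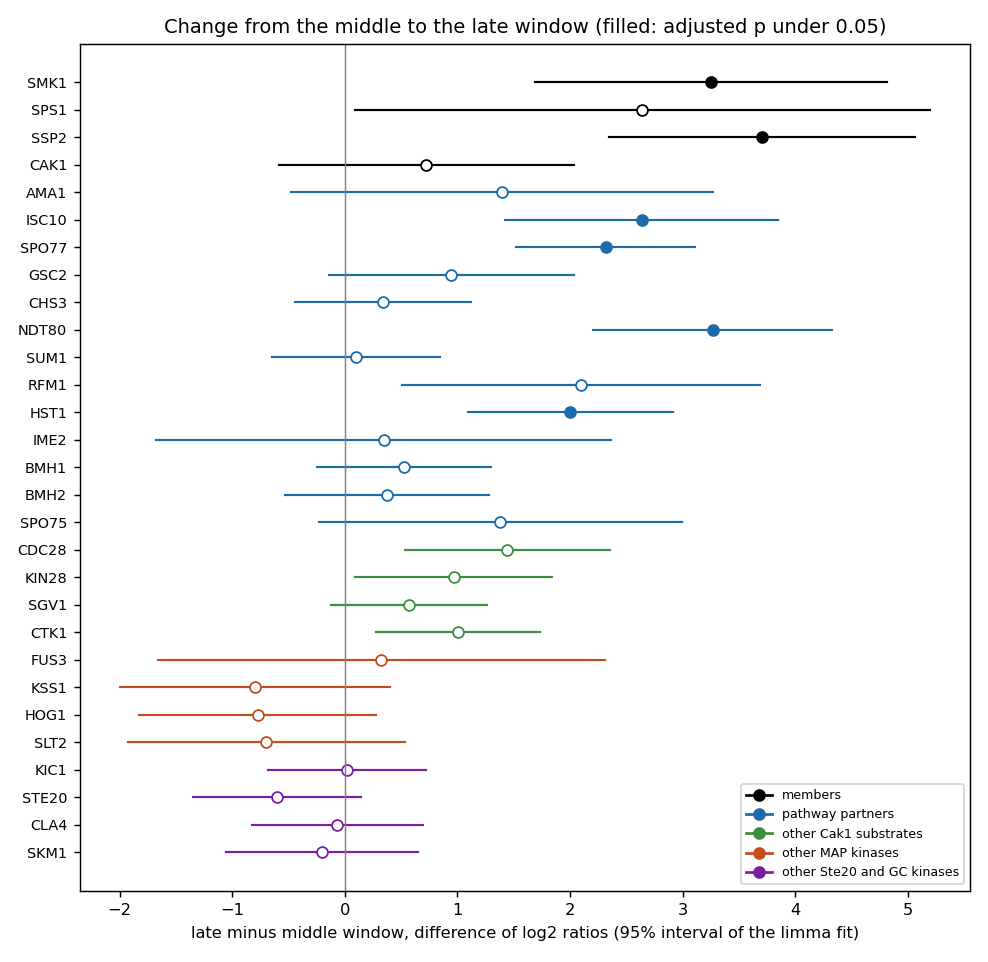
Difference of log2 ratios between the late and the middle window (horizontal) with the 95% interval of the limma fit, for the 4 genes and the 4 lists (rows); filled points passed at an adjusted p under 0.05. SMK1 (3.25), SSP2 (3.71), NDT80, ISC10, SPO77 and HST1 are filled, and the intervals of the other MAP kinases include 0.

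Among themselves, SMK1 and SSP2 ran closest over the 12 samples, with a Pearson r of 0.961. SMK1 and SPS1 gave 0.865, and SPS1 and SSP2 0.813. SPS1 had no value on the 5.0 h B and 5.5 h B arrays, so its means rest on other arrays than theirs. From the A arrays alone, SMK1 gave 0.963 with SSP2 and 0.961 with SPS1, and SPS1 gave 0.949 with SSP2. From the measured B arrays the same pairs gave 0.966, 0.893 and 0.768. CAK1 gave 0.334 with SMK1, 0.436 with SPS1 and 0.22 with SSP2. From the A arrays alone these were 0.301, 0.418 and 0.282, and from the B arrays alone 0.604, 0.503 and 0.538. These correlations describe 12 successive samples that share their arrays and their time-zero RNA.

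The genes most like each member were the 3 with the highest r over the 12 samples, out of 5831 genes above background for the later RNA on at least 4 arrays. For SMK1 they were SPS2 (r = 0.989), YNL033W (0.986) and YNL019C (0.982). SPS2, a spore wall protein gene, lies next to SPS1 in the R64 gene table, and it gave -0.40 (A) and 7.50 (B) at 5.0 h, where SMK1 gave -0.16 and 5.12. For SSP2 they were CDA2 (r = 0.987), PIR5 (0.979) and CDA1 (0.979). CDA1 and CDA2 encode chitin deacetylases, which turn chitin into the chitosan of the spore wall, and PIR5 belongs to a family of cell wall proteins. The late against middle differences of these 6 genes lay between 3.67 and 4.65; they were picked for their likeness over the same samples, which fixes the direction, so no test is given.

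For SPS1 the closest genes were YPR078C (r = 0.979), YPR077C (0.972) and SPS22 (0.955), a relative of SPS2. All 3 lacked a value on the 5.0 h B and 5.5 h B arrays, as SPS1 did, so they share which arrays enter their means. Their late against middle differences were 2.93, 3.49 and 2.25. For CAK1 the closest were YML117W-A (r = 0.905), YBL108W (0.902) and DID4 (0.894), a gene of endosomal sorting. Their late against middle differences were 0.99, 0.13 and 0.21.

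**Figure D5:**
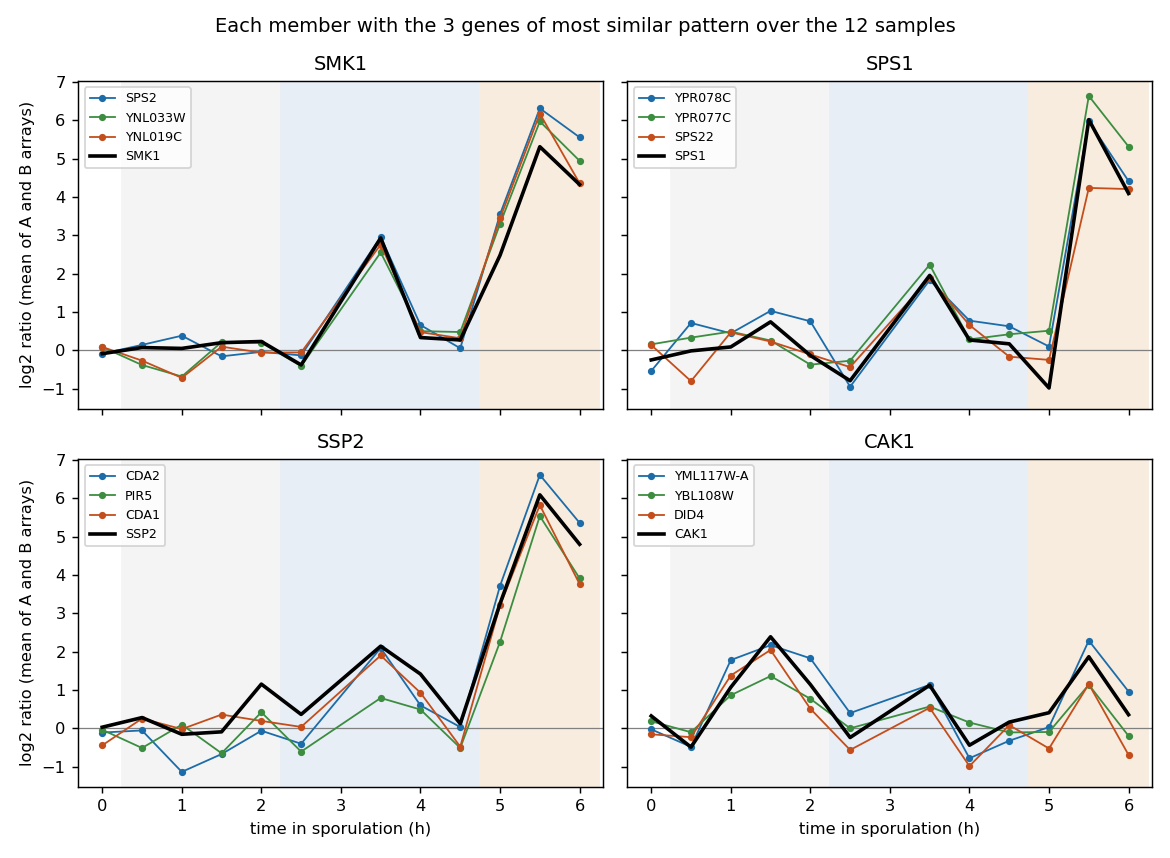
Mean log2 ratio of the A and B arrays (vertical) against hours (horizontal) for each member (thick black line) and the 3 genes whose pattern over the 12 samples was most like it (coloured lines), with the early, middle and late windows shaded grey, blue and orange. The curves of SMK1 and SSP2 and their companions rise at 3.5 h, fall back at 4.0 to 4.5 h rise again from 5.0 h and are highest at 5.5 h, while CAK1 and its companions are highest at 1.5 h or 5.5 h.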

How the data were processed

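The authors' deposited array files give an intensity and a local background per spot and dye. The intensities were taken as background-subtracted, since values below 0 occur; the files do not state it. How the authors normalised the log2 ratios of the deposited series table, used as an alternative, is not stated in the sources at hand. Per the file headers the time-zero image comes first on 24 of 24 arrays, Cy3 on A and Cy5 on B. Channel 1 was nevertheless read as Cy3 on both: channel 2 had the higher local background on 10 of 12 A and 12 of 12 B arrays, and the series table correlated with the B arrays so read at r from 0.265 to 0.896. Its r with the A arrays was -0.243 at 0.5 h and 0.469 to 0.895 at the other times. Its r with the mean of both arrays was 0.157 at 0.5 h and 0.877 to 0.963 at the other times.

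Blanks, controls, spots marked U or Z and values at or below 0 were left out; the marks are not explained in the files, and S was kept. Ratios were corrected by loess (span 0.3, 4 iterations) and the sign of B arrays was changed. Spots, then the A and B arrays (technical repeats), were averaged. With R 4.3.3 and limma 3.58.1, 4 window means were fitted to 12 samples, with Benjamini-Hochberg adjustment at 0.05 over 6283 genes; 10 genes without a value at every time were not tested. The fit was tested on simulated data. Members, lists and tests were chosen with earlier results of these data known. Named genes were the 4 members, the members of the 4 lists and the 3 genes most like each member. Gene symbols are those of the R64 annotation, matched on locus tags. The number of arrays limits the precision.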

Additional observations from a re-analysis of the deposited data

How the results depend on the processing

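The direction of the SMK1, SPS1 and SSP2 differences between the late and middle windows was positive under every alternative that gave a value. Leaving aside the header-order reading of the B arrays, they ran from 2.00 to 5.24 for SMK1, 1.15 to 6.14 for SPS1 and 2.19 to 5.46 for SSP2, while CAK1 lay between 0.23 and 2.04 and never passed. With that reading, added after seeing the data, the SMK1 and SSP2 calls were lost (0.24 and 0.40), CAK1 turned to -0.26, and 0 genes were called in late against middle, middle against early or late against zero (563, 260 and 196 at an unadjusted p below 0.05). It also reversed SMK1 (-0.34), SPS1 (-0.40) and SSP2 (-0.86) in middle against early, and SMK1 (-0.025) and CAK1 (-0.53) in late against zero. SPS1 has no value from the B arrays alone or in the authors' series table, which lack it at 5.0 h. The cause of the changes below was not tested. The SMK1 and SSP2 calls were lost with scaling between arrays (2.00 and 2.19), from the A arrays (3.49 and 4.11), from the B arrays (3.01 and 3.31), with windows ending at 1.5 and 4.0 h (2.32 and 2.30) and in the authors' deposited table (2.26 and 2.25). Leaving out 1 time at a time gave 2.62 to 4.03 for SMK1 and 1.15 to 4.66 for SPS1. SPS1 was at 5.62 without the 5.0 and 6.0 h samples and at 6.14 without the 3.5 h sample as well; the late window is then 1 array picked after the values were seen, which gives no support.

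The 228 genes called in late against middle became 98 with normexp (offset 50), 94 with median centring, 50 with scaling, 120 without spots marked S, and 0 with only the A arrays (810 genes had an unadjusted p below 0.05), only the B arrays (946) or the other windows (542). They became 702 without 5.0 and 6.0 h and 774 without 3.5 h as well. By single times the count ran from 124 without 5.5 h to 466 without 6.0 h, with 140 without 2.5 h and 143 without 4.5 h. The middle against early count of 0 became 3 with normexp and 1 without 3.5, 5.0 and 6.0 h, and ran from 0 to 1 by single times.

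The 56 genes called in late against zero became 10 with normexp, 29 with median centring, 26 without S, 0 from the A arrays (561), the B arrays (281) or the other windows (372), 1422 against a ratio of 0, 334 without 5.0 and 6.0 h and 370 without 3.5 h as well; by single times the count ran from 28 without 1.0 h to 114 without 6.0 h, with 31 without 1.5 h and 85 without 5.0 h. The SSP2 call there was lost with normexp, scaling, S-marked spots left out, either orientation, other windows and the authors' table. Reversed differences were CAK1 in late against zero with scaling (-0.21), and in middle against early SPS1 with median centring (-0.48), from the A arrays (-0.17), and without 3.5 h (-0.29), SSP2 from the A arrays (-0.14) and SMK1 without 3.5 h (-0.064). By single times those ran from -0.064 to 1.04 for SMK1 and -0.29 to 0.63 for SPS1. Without 3.5, 5.0 and 6.0 h they were again -0.064 and -0.29.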
